A study of Mus musculus with 2 samples.

Results

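The genes described are those of the proteasome, chosen by symbol as all Psma, Psmb, Psmc, Psmd, Psme, Psmf and Psmg genes other than Psmb8, Psmb9 and Psmb10. They were 47 of the 26601 named genes in the table. Of these, 46 encode subunits, assembly chaperones, activators or an inhibitor of the proteasome. The remaining one, Psmc3ip, is a meiotic recombination factor named for binding the subunit Psmc3 and is not part of the complex.

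The proteasome is the large protease that degrades ubiquitin-tagged proteins. Its 20S core is a barrel of alpha and beta subunits with the protease sites inside, and its 19S regulatory particle, made of a base and a lid, binds, unfolds and feeds in the substrate. Dividing cells need it to remove cell cycle regulators, and immune cells and cells exposed to interferon replace its catalytic subunits with those of the immunoproteasome.

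The data were 2 RNA sequencing libraries from subcutaneous CT26 tumours, a colon carcinoma line of BALB/c origin, in BALB/c mice of genotype WT. The Empty NP group received unloaded nanoparticles, and the FuOXP NP group received nanoparticles with 10 mg/kg of FuOXP, a conjugate of 5-fluorouracil and oxaliplatin. From a tumour size of about 200 mm3, both were given intravenously 3 times at intervals of 5 days, and tumours were collected 24 hours after the last dose. There was 1 library per group, and the labels, which give 3 mice, leave unstated whether tumours were pooled, so no difference below has a replicate check or a p-value. Higher and lower describe these libraries only, and in whole tumours fewer cells of a type and less RNA per cell cannot be told apart.

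Values are TPM, transcript abundance per length on a common total. Because low values fell on steps worth 1 read, read numbers could be recovered, 447905 with Empty NP and 934349 with FuOXP NP over named genes, of which the single gene Lars2 held 129584 and 723915. The median gene among the 9488 whose mean reached 1 TPM had a log2 difference (FuOXP NP minus Empty NP, 1 TPM added to each) of -1.44, so differences are also given relative to it. Among the 3264 genes above 0 in each library and with 20 or more recovered reads over both, the median TPM was 3.42-fold lower with FuOXP NP, and this is called the typical gene. Skeletal muscle markers moved with the groups. The 11 markers summed to 110.0 TPM with Empty NP and 0.317 TPM with FuOXP NP, where 10 of the 11 were listed at 0. The proliferation markers Mki67 and Top2a summed to 104 and 20.4 TPM, 8 macrophage markers to 466 and 276 TPM, and 5 fibroblast markers to 121 and 59.6 TPM. In summed TPM the 5 erythroid markers went the other way, from 38.5 to 75.0 TPM. The globin Hbb-bs was at 0 with Empty NP and at 57.1 TPM on 23 reads with FuOXP NP, and Alas2 was lower. Pooled on reads the erythroid markers were 1.31-fold lower (0.763 to 2.23), an interval that holds equal levels. The part of all these markers in the results was not tested. The epithelial markers Krt8, Epcam and Cdh1 were listed at 0 in both libraries and Krt18 stood at 2.54 TPM with Empty NP and at 0 with FuOXP NP, so these libraries do not show the epithelial origin of the line.

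Promoter sequences are shown for motifs read by known regulators of proteasome genes. Nfe2l1 and Nfe2l2 bind the antioxidant response element, and NF-Y binds CCAAT. RefSeq promoters (GRCm38.p6, 250 bases before to 50 after the start) were given for 39 of the 47 members. The letters TGACNNNGC, the core of the antioxidant response element, were found on either strand for 6 of the 39 members (15.4%, against 14.0% of all 27025 genes with a promoter). The letters CCAAT were found on either strand for 14 of the 39 (35.9%, against 41.1%). Both shares were near those of all genes, and a match is a description of the sequence, not a binding site.

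The windows below are 60 bases long around the motif, 5′ to 3′ on the strand of the gene, with the motif in capitals. The first 4 belong to the members past the filter that hold TGACNNNGC wholly before the start, among them the catalytic subunits Psmb5 and Psmb6. The last 2 show CCAAT for Psma2 and Psmd14, the members with at least 20 reads whose TPM ratio was lowered least. In Psmc6, Psmd12 and Psmd14 the capitals are the motif on the opposite strand.
Psmb5, chr14:54618008-54618067, minus strand: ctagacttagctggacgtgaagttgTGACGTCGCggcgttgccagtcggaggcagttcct
Psmb6, chr11:70525297-70525356, plus strand: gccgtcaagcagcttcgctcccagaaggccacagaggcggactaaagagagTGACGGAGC
Psmc6, chr14:45329574-45329633, plus strand: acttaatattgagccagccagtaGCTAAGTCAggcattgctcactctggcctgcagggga
Psmd12, chr11:107479278-107479337, plus strand: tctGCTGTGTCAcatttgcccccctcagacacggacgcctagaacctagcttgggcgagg
Psma2, chr13:14613161-14613220, plus strand: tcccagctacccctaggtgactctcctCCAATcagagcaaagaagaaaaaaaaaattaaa
Psmd14, chr2:61711508-61711567, plus strand: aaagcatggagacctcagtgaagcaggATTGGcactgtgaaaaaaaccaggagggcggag
The TGACNNNGC match reached the start itself in Psmb6, and lay 38 bases before it in Psmb5, 218 in Psmc6 and 238 in Psmd12. The CCAAT match shown lay 49 bases before the start in Psma2 and 154 in Psmd14.

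As deposited, proteasome transcripts were lower with FuOXP NP, but by less than the typical gene, and after rescaling without the 20 most abundant rows their pooled level was higher. The 46 proteasome genes summed to 603 TPM with Empty NP and 288 TPM with FuOXP NP. On recovered reads they were 2.03-fold lower (exact 95% counting interval 1.78 to 2.32; 466 and 428 reads). This pooled fold weights genes by their reads, whereas the typical gene is a median over single genes. By part, the pooled intervals of the chaperones (1.47 to 3.87) and of the activators (1.47 to 3.98) held the 3.42-fold of the typical gene. Those of the alpha and beta rings, the base and the lid ended below it. Of the 43 members whose mean reached 1 TPM, 38 were lower and 5 higher as deposited, where 92.6% of all genes were lower. At least 2-fold lower were 19 members, or 44.2%, against 69.8% of all genes, and 0 were at least 2-fold higher, against 2.34%. Among the 19, Psmc2, Psme2b, Psmg2 and Psmg4 stood below 1 TPM with FuOXP NP. They passed the filter only through Empty NP, which fixes their direction, and the same filter applied to all genes.

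The direction depended on the scaling. Just 20 rows took 47.2% of all TPM with Empty NP and 81.3% with FuOXP NP. Leaving out these most abundant rows and rescaling divides every fold lower by 2.82. It also raises all other values, so that 11679 genes rather than 9488 reach a mean of 1 TPM. The median gene of this larger set, again with 1 TPM added, stood at -0.30, against -1.44 for the deposited set. Shares of all genes on the rescaled scale are over the 11679. The typical gene was then 1.21-fold lower, whereas the proteasome genes were 1.39-fold higher pooled (1.21 to 1.59). By part, the core was 1.64-fold higher (1.33 to 2.04) and the lid 1.46-fold higher (1.02 to 2.10), while the base (1.19; 0.926 to 1.53), the chaperones (1.19; 0.729 to 1.92) and the activators (1.17; 0.708 to 1.92) had intervals that hold equal levels. Relative to the median gene of the same scale, the median of the members was 0.72 after rescaling and 0.64 as deposited. Of 45 members past the filter on that scale, 14 were lower and 31 higher, where 58.3% of all genes were lower, 5 were at least 2-fold lower, against 30.3%, and 7 (15.6%) were at least 2-fold higher, against 15.8%. Lower and higher below refer to the deposited scale. Counts by part below are to be read beside all genes on that scale, of which 92.6% were lower and 69.8% at least 2-fold lower.

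Relative to the median gene 31 of the 43 members lay above and 12 below, where 50% of all genes lay above, and the median of the members was 0.64 above it on the log2 scale. At least 2-fold above the median gene were 9 members (20.9%, against 12.6% of all genes), and 1 was at least 2-fold below (2.33%, against 12.2%). Only 3 of these 9, Psma2, Psmb1 and Psmd14, had 20 or more reads, and the other 6 had at most 9. The 1 below was Psmg4, on 1 read with Empty NP and at 0 with FuOXP NP. Members not past the filter were Psma8 and Psmb11, listed at 0 in both libraries, and Psmd9 and Psmf1. Depth limited single genes, since 12 of the 47 members had at most 3 reads in each library.

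**Figure D1:**
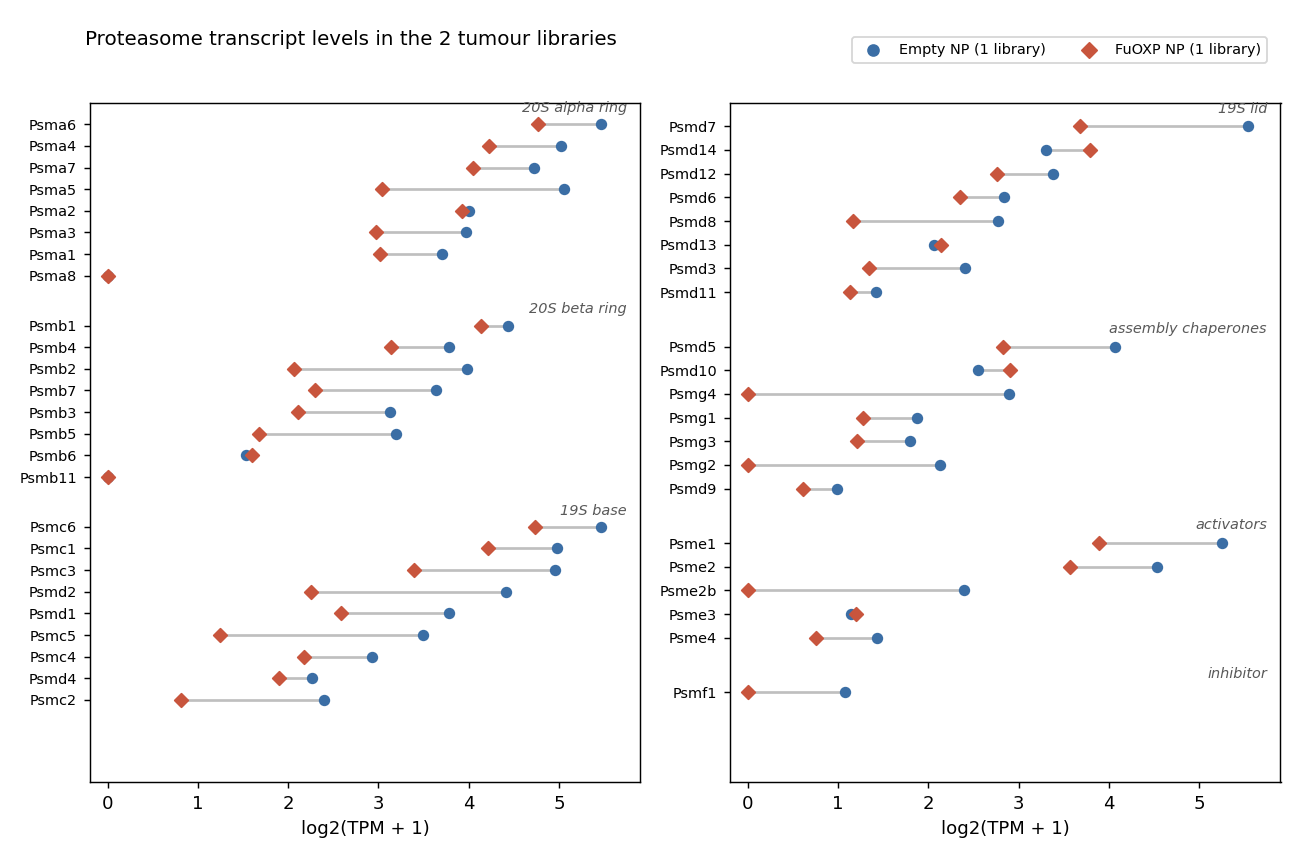
Level of each proteasome gene as log2(TPM + 1) on the horizontal axis, grouped by part of the complex, with circles for the Empty NP library and diamonds for the FuOXP NP library. Psmc3ip is not drawn. On this deposited scale the diamond lies left of the circle for 37 of the 42 proteasome genes past the filter. It lies right of the circle for Psmb6, Psmd10, Psmd13, Psmd14 and Psme3. After rescaling without the 20 most abundant rows, 31 of 45 members, Psmc3ip among them, would be higher with FuOXP NP.

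Ratios of deposited TPM without a pseudocount also showed the members lowered less than the typical gene. The 18 members with 20 or more reads were a median of 1.92-fold lower with FuOXP NP (quartiles 1.66 and 2.59), and 15.3% of all genes at that depth were lowered less than this. Of the 18, 16 were lowered less than the typical gene. The counting interval lay wholly on the less lowered side of the typical gene for 6 of the 18, Psma2, Psma4, Psma7, Psmb1, Psmc6 and Psmd14 (33.3%, against 16.7% of all genes), and wholly on the more lowered side for 0 (against 14.2%). It lay wholly below equal levels for 8 of the 18 (44.4%, against 84.8%), and the other 10 could not be told from equal at this depth. Of the 6 on the less lowered side, Psma2, Psmb1 and Psmc6 had rounded reads, and Psma4 shares exon bases with another annotated gene. For comparison, 72 cytosolic ribosomal protein genes at that depth were a median of 1.76-fold lower. Over 4 classes of exon length, genes in the shortest class (up to 3361 bases) were a median of 3.08-fold lower and those in the longest 3.73-fold, and the members had a median of 2800 exon bases.

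**Figure D2:**
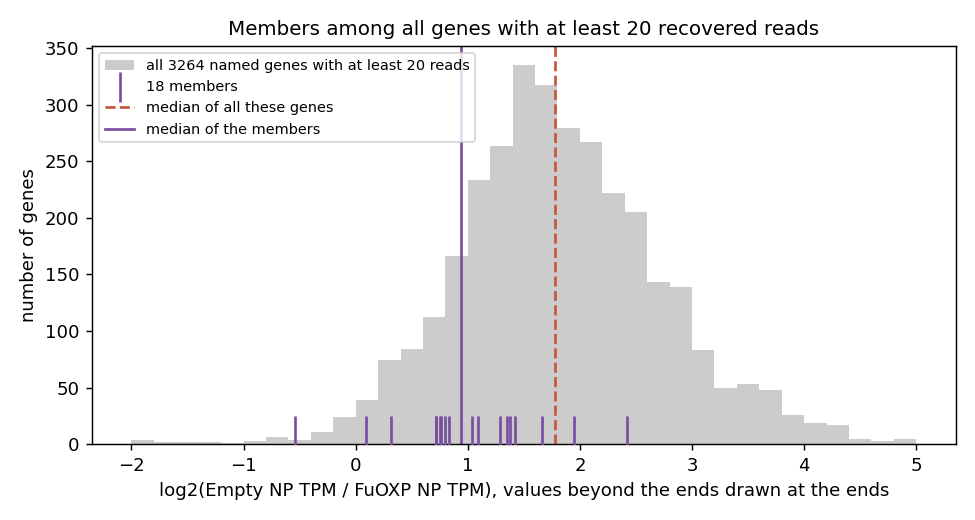
Number of named genes with at least 20 recovered reads by log2(Empty NP TPM / FuOXP NP TPM), where higher values are lower with FuOXP NP, and ticks for the 18 members. The median of the members lies left of the dashed median of all these genes, with 16 ticks left of the dashed line and 2 right of it.

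The alpha subunits form the outer rings of the core and hold the gate through which substrates pass. With Empty NP their levels ran from 12.1 TPM (Psma1) to 43.3 TPM (Psma6), and with FuOXP NP from 6.86 TPM (Psma3) to 26.3 TPM (Psma6). All 7 members above 0 were lower, 1 of them by at least 2-fold, and their median was 0.74 above the median gene. Pooled, the ring was 1.73-fold lower (1.32 to 2.25; 112 and 121 reads), an interval that ends below the 3.42-fold of the typical gene. Psma2, whose CCAAT window is shown above, was nearly level at 15.1 TPM with Empty NP and 14.1 TPM with FuOXP NP, 1.11-fold lower on rounded reads (0.557 to 2.13), and lay 1.35 above the median gene. Psma5 was the lowest of the ring relative to the median gene, with 32.4 and 7.22 TPM on 12 and 5 reads, 4.48-fold lower (1.47 to 16.2). Psma8, the alpha subunit of the testis proteasome, was listed at 0 in both libraries, where 3 reads would be 4.29 TPM with Empty NP and 2.30 TPM with FuOXP NP.

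The beta subunits form the inner rings, and Psmb5, Psmb6 and Psmb7 carry the chymotrypsin-like, caspase-like and trypsin-like sites. Per length they stood below the alpha subunits, at a summed 77.5 TPM against 174 TPM with Empty NP and 39.0 TPM against 94.9 TPM with FuOXP NP. The alpha share of the core was 0.693 (0.612 to 0.767) and 0.709 (0.629 to 0.783), a difference within counting error. Pooled, the beta ring was 1.69-fold lower (1.17 to 2.45; 58 and 64 reads), and of its 7 members above 0, 6 were lower, 4 of them by at least 2-fold.

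Of the catalytic subunits, Psmb5 was at 8.18 TPM with Empty NP and 2.19 TPM with FuOXP NP on 2 reads and 1 read. Psmb6 was at 1.90 and 2.04 TPM on 1 read and 2 reads. Psmb7 was at 11.5 and 3.90 TPM on 11 and 7 reads, 2.93-fold lower (1.04 to 8.92). Only for Psmb7 did the counting interval leave out equal levels, and together the 3 were 2.61-fold lower (1.08 to 6.58; 14 and 10 reads). Psmb5 and Psmb6, which both hold TGACNNNGC before the start, thus rested on too few reads to be told apart from each other or from equal levels. Psmb2, a non-catalytic subunit, was the lowest of the ring relative to the median gene, with 14.8 and 3.17 TPM on 5 and 2 reads. Psmb1, also non-catalytic, rested on the most reads of the ring, with 20.6 and 16.6 TPM, 1.26-fold lower (0.744 to 2.10). Psmb1 here and Psmd2, Psmc3 and Psmc6 below are described in full after their values were seen. Psmb11, the thymus-specific catalytic subunit, was listed at 0 in both libraries, where 3 reads would be 2.23 TPM with Empty NP and 1.20 TPM with FuOXP NP.

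The 3 catalytic subunits of the immunoproteasome, outside the rule, differed from the core. Their summed TPM was 0.299 of that of the core with Empty NP (0.222 to 0.398) and 0.105 with FuOXP NP (0.0642 to 0.164). On reads the ratio with FuOXP NP was 0.298 times that with Empty NP (0.168 to 0.513), and no scaling of a library changes this. Pooled, the 3 were 5.77-fold lower (3.52 to 9.80; 68 and 22 reads) and the core 1.72-fold lower (1.38 to 2.12). The typical gene, at 3.42-fold, lay between them. Psmb9 shares exon bases with Tap1, and without Psmb9 the change was 0.361 times (0.143 to 0.836) on 23 and 9 reads. The pooled fold without Psmb9 was 4.77 (2.13 to 11.7), an interval that holds the typical gene. The 7 leukocyte markers summed to 58.6 and 15.1 TPM, 3.97-fold lower pooled (2.79 to 5.71), an interval that holds the typical gene. Cd52 had 5 reads with Empty NP and was at 0 with FuOXP NP. The 6 past the filter were lower, where 92.6% of all genes were. Relative to the median gene, 4 of them lay above and 2 below. The part of these markers in the ratio of the immunoproteasome to the core was not tested.

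**Figure D3:**
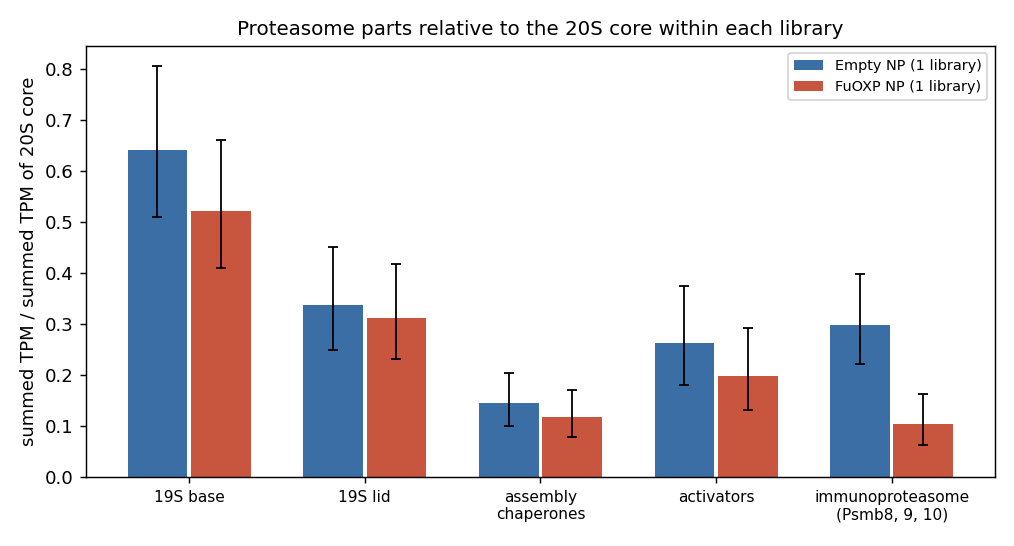
Summed TPM of each part divided by the summed TPM of the 20S core within the same library, with bars for the Empty NP and FuOXP NP libraries and exact 95% counting intervals as error bars. The intervals overlap for the 19S base, the lid, the chaperones and the activators, while for the immunoproteasome 0.299 and 0.105 have intervals that do not overlap.

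The base of the regulatory particle holds the ring of ATPases, Psmc1 to Psmc6, which unfolds the substrate, the scaffolds Psmd1 and Psmd2, and the ubiquitin receptor Psmd4. All 9 members were lower, 5 of them by at least 2-fold (55.6%, against 69.8% of all genes), and their median was 0.24 above the median gene. Pooled, the base was 2.37-fold lower (1.84 to 3.04; 147 and 116 reads). Among the ATPases, Psmc6 had the highest level, 43.3 TPM with Empty NP and 25.6 TPM with FuOXP NP, 1.67-fold lower (1.07 to 2.58). Psmc5 was the lowest of the base relative to the median gene, with 10.2 and 1.37 TPM on 4 reads and 1 read. Psmc3, whose exons share bases with Slc39a13, was at 30.1 and 9.51 TPM, 3.16-fold lower (1.52 to 6.83). The interval of Psmc6 thus ended below the typical gene, and that of Psmc3 held it. Psmd4 was the highest of the base relative to the median gene, with 3.80 and 2.72 TPM on 3 and 4 reads. Psmd2 was at 20.3 and 3.78 TPM, 5.37-fold lower (2.32 to 13.9; 23 and 8 reads). Among the 18 members with 20 or more reads, Psmd2 and Psmd14 were the 2 whose interval left out the pooled 2.03-fold of the proteasome genes. Both are part of that pool. The share of all genes whose interval leaves out this fold was not computed, so the 2 are not set apart from the complex.

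The lid removes the ubiquitin chain before the substrate enters. Its deubiquitinase is Psmd14, which works as a pair with the inactive relative Psmd7, and these were the highest and the lowest of the lid relative to the median gene. Psmd14 was at 8.84 TPM with Empty NP and 12.9 TPM with FuOXP NP on 7 and 19 reads, 1.45-fold higher (0.585 to 4.09), and lay 1.93 above the median gene, the highest of all members that passed the filter. Psmd7 was at 45.7 and 11.8 TPM on 29 and 14 reads, 3.87-fold lower (1.98 to 7.92), and its difference relative to the median gene was -0.43. The interval of Psmd14 holds equal levels and leaves out the 3.42-fold of the typical gene, whereas that of Psmd7 holds the typical gene and leaves out equal levels. Of the 8 lid members, 6 were lower and 2 higher, the second being Psmd13, a lid scaffold, with 3.16 and 3.39 TPM on 3 and 6 reads. Psmd12, another lid scaffold and one of the promoters shown above, was at 9.41 and 5.76 TPM on 7 and 8 reads. Pooled, the lid was 1.93-fold lower (1.34 to 2.77; 65 and 63 reads).

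Relative to the core within each library, the base stood at 0.642 with Empty NP (0.511 to 0.805) and 0.522 with FuOXP NP (0.410 to 0.662), and the lid at 0.337 (0.250 to 0.452) and 0.313 (0.231 to 0.419). On reads, the ratio of the whole regulatory particle to the core with FuOXP NP was 0.776 times that with Empty NP (0.576 to 1.05). This interval holds 1, so a change of composition between core and regulatory particle was not detectable at this depth.

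**Figure D4:**
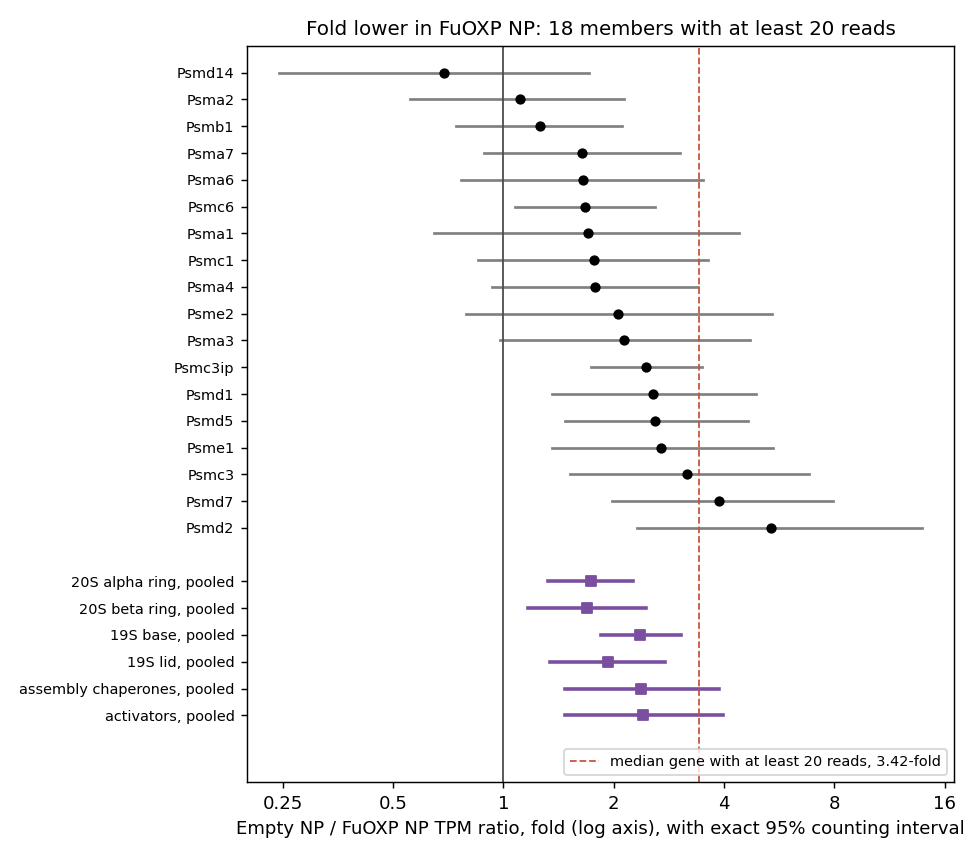
Fold by which the deposited TPM was lower with FuOXP NP, on a log axis, for the 18 members with at least 20 recovered reads (points) and for each part pooled over its members (squares), with exact 95% counting intervals as lines. Psmd14 lies at the top, left of equal levels at 1, and Psmd2 is the lowest point, at 5.37-fold, with a dashed line at 3.42-fold for the median gene at that depth. Rescaling without the 20 most abundant rows would divide all folds by 2.82.

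Assembly chaperones build the core and base and leave the finished complex. Of 6 past the filter, 5 were lower and 1 higher, and pooled the 7 were 2.38-fold lower (1.47 to 3.87; 42 and 33 reads). Psmd5, which holds base subunits during assembly, was the only chaperone with 20 or more reads, at 15.8 TPM with Empty NP and 6.07 TPM with FuOXP NP, 2.60-fold lower (1.47 to 4.65; 32 and 23 reads). Psmd10, or gankyrin, a base chaperone overexpressed in some liver cancers, was the highest of the group relative to the median gene, with 4.85 and 6.49 TPM on 2 and 5 reads. The Psmg genes encode the chaperones that assemble the alpha ring. Psmg4, the lowest of the group, was at 6.43 TPM on 1 read with Empty NP, Psmg2 was at 3.36 TPM on about 2 reads, and both stood at 0 in the other library. These numbers are within the 3 reads that a listed 0 allows. Psmg1 was at 2.65 and 1.42 TPM, Psmg3 at 2.46 and 1.32 TPM, and the base chaperone Psmd9, below the filter, at 0.983 and 0.526 TPM.

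Activators open the core without ubiquitin or ATP. Of the 5, 4 were lower and 1 higher, and pooled they were 2.41-fold lower (1.47 to 3.98; 40 and 31 reads). Psme1 and Psme2, which form the interferon-inducible activator linked to antigen processing, had the highest levels, 37.1 and 22.2 TPM with Empty NP against 13.8 and 10.8 TPM with FuOXP NP. Together they were 2.44-fold lower (1.42 to 4.24; 34 and 26 reads), and their ratio to the core with FuOXP NP was 0.703 times that with Empty NP (0.388 to 1.26). The 2 genes are near each other on chromosome 14, Psme1 at 55578123 to 55581529 and Psme2 at 55587441 to 55591113 (GRCm38, GENCODE vM21). Psme3, the nuclear activator, was the highest of the group relative to the median gene, with 1.21 and 1.29 TPM on 1 read and 2 reads. Psme4, an activator of spermatogenesis and DNA repair, was at 1.70 and 0.683 TPM on 4 and 3 reads. Psme2b, a relative of Psme2 that may share reads with it, was at 4.25 TPM on 1 read with Empty NP and stood at 0 in the other library. The inhibitor Psmf1, below the filter, was at 1.11 TPM on 2 reads with Empty NP and also stood at 0 in the other.

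Psmc3ip had the highest level of all members, 157 TPM with Empty NP and 64.0 TPM with FuOXP NP on 80 and 61 reads. It was 2.45-fold lower (1.73 to 3.47), and 0.16 above the median gene. Its gene (chromosome 11, 101091823 to 101095436, minus strand) has 1818 exon bases, of which 385 overlap exons of Mlx, so its reads may come in part from that gene. Psma4, Psma5, Psmb5, Psmb7, Psmc3, Psmd1, Psmd3, Psmd9, Psmd13, Psme1, Psme2b and Psmg3 also share exon bases with another annotated gene, and whether strand was used in counting is not stated.

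Partners of the proteasome outside the symbol rule were 2.48-fold lower pooled (1.92 to 3.23; 141 and 106 reads). Of 13 listed, 12 were in the table and 11 passed the filter, of which 9 were lower, 7 of them by at least 2-fold, where 69.8% of all genes were, and 2 higher. Their median was 0.29 above the median gene, against 0.66 for the proteasome genes, and this difference was not tested. The higher ones were Uchl5, a deubiquitinase of the base, with 1.22 and 2.61 TPM on 1 and 4 reads, and Pomp, which matures the core, with 2.73 and 3.29 TPM on 4 and 9 reads. The lowest were the ubiquitin receptor Adrm1, with 5.59 and 0.428 TPM on 7 reads and 1 read, and Fbxo7, a binding partner of Psmf1, with 5.19 and 0.617 TPM on 9 and 2 reads.

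Shuttle factors and the Vcp unfoldase bring ubiquitinated proteins to the proteasome. Ufd1, a Vcp cofactor, was the highest of this list relative to the median gene, with 1.64 and 0.880 TPM on 2 reads in each library. Rad23b, a shuttle factor, was the lowest, with 14.3 and 1.997 TPM, 7.16-fold lower (2.83 to 21.5), followed by Nploc4, another Vcp cofactor, at 3.73 TPM on 5 reads with Empty NP and at 0 in the other library. The interval of Rad23b holds the 3.42-fold of the typical gene.

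The list of regulators of proteasome subunit genes held Nfe2l1, the factor that raises subunit genes when the proteasome is impaired, Nfe2l2, its inhibitor Keap1, Ngly1, the small Maf partners and the subunits of NF-Y. Pooled, its 10 genes were 5.80-fold lower (3.97 to 8.65; 115 and 37 reads), where the typical single gene was 3.42-fold lower. All 7 past the filter were at least 2-fold lower, as were 69.8% of all genes, and 6 of the 7 lay below the median gene, as did 50% of all genes. For no single gene of the list did the interval lie wholly above the typical gene. The highest were Nfe2l1, with 7.20 and 2.10 TPM, 3.42-fold lower (1.16 to 11.3), and Nfe2l2, with 19.7 and 6.53 TPM, 3.02-fold lower (1.44 to 6.55). The lowest were Maff, at 8.40 TPM on 6 reads with Empty NP and at 0 in the other library, and Mafk, with 19.2 and 1.96 TPM, 9.80-fold lower (3.31 to 39.3).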

How the data were processed

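The values are TPM as the authors deposited them, a single column for each group over 53927 rows. STAR 2.6.1a, Cufflinks 2.2.1, Cuffdiff and the build GRCm38 appear in the submitters' processing notes, without roles. Annotation and strand setting were not given in the sources used here. The labels give between 73 M and 77 M reads of 75 bases per sample.

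Rows without a symbol (22240) or with a date for a symbol (26) were left out, and adjacent rows with equal pairs of values (54) were counted once. Of a repeated symbol the highest row was kept, which applied to 0 members. Differences were log2((FuOXP NP + 1)/(Empty NP + 1)), which understates changes of low genes, at a mean of at least 1 TPM, and called at 2-fold. No test was possible with 1 library in each group.

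Recovered reads are TPM times GENCODE vM21 exon length over the TPM of 1 read on 1000 bases, 3.56 with Empty NP and 1.91 with FuOXP NP. Under 10 reads, 81.3% of genes in each library came within 0.01 of a whole number. Of 45 members above 0, 39 were whole within 0.1, and Psma2, Psmb1, Psmc1, Psmc6, Psmd6 and Psmg2 were rounded. These totals are far below the labelled read numbers, for a reason that no source here gives. Intervals are exact 95% Clopper-Pearson intervals (for changes of a ratio, exact conditional ones), on reads, and cover counting error only. The steps were tested on simulated data.

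Members and lists were chosen with earlier results of these data known. Named were the catalytic subunits, the highest member by mean, the highest and lowest of each group relative to the median gene, members at 0 in 1 library, and the 2 highest and 2 lowest of each related list. Some genes of the related lists, and the results that rest on them, are not reported here. Python 3.11.15, numpy 2.4.6, pandas 2.3.3, scipy 1.17.1 and matplotlib 3.10.9 were used.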

Additional observations from a re-analysis of the deposited data

How the results depend on the processing

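No paired analysis was possible because each group has 1 library, and leaving out a replicate was not possible for the same reason. Alternatives on similar exon length or mean TPM, on at least 20 reads and without members of rounded reads were added after seeing the data. Over all alternatives, 95 values of groups of members stayed within counting error or within 1.5 times the count, 24 moved beyond it and 2 reversed. Part of the 95 could hardly change. Summing repeated symbols touched no member, and recovered reads per exon length rebuild the deposited TPM apart from rounding. The count at least 2-fold lower does not depend on the centre. The causes of the changes were not tested beyond what each setting removes. The median of the members relative to the median gene (0.64) was 0.0797 with a pseudocount of 5 TPM, 0.394 with no filter, 0.862 centred on genes of at least 10 TPM and 0.839 on members with at least 20 reads, and stayed above 0 throughout. With a pseudocount of 5 TPM the alpha ring (0.74) came to 0.105 and the activators (0.47) reversed to -0.0512. The base (0.24) reversed to -0.0054 with no filter and came to 0.68 without members with exon overlap. The count of members at least 2-fold lower (19) was 9 with a pseudocount of 5 TPM and 5 after rescaling without the 20 most abundant rows, where 30.3% of all genes were. The count at least 2-fold above the median gene (9) was 17 with a pseudocount of 0.1 TPM, 1 with 5 TPM, 16 after rescaling and 14 centred on genes of at least 10 TPM. The count below it (1) was 3, 0 and 4 in the first 3 of these settings, 3 with no filter, 0 at a mean of 5 TPM and 0 with at least 20 reads. Apart from the 30.3%, the share of all genes past the same fold was not computed for these settings. That share can change with the setting, so these counts show no excess or lack of members. Without members of rounded reads the base was 0.407 of the core with Empty NP and 0.258 with FuOXP NP. Without the highest member of each group the lid was 0.209 of the core with Empty NP and 0.331 with FuOXP NP. With all members it was 0.337 and 0.313, so the direction of the lid ratio depended on these members. The activators were then 0.156 of the core with Empty NP and 0.141 with FuOXP NP. Without the 20 most abundant rows all members held 0.144% of the TPM with Empty NP and 0.188% with FuOXP NP, against 0.0759% and 0.0352% as deposited. That rescaling turned 6 members that were at least 2-fold lower to higher, with log2 differences of 0.26 for Psmb3, 0.20 for Psmc3ip, 0.14 for Psmd1, 0.0085 for Psmd3, 0.11 for Psmd5 and 0.070 for Psme1.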
